A study of Mus musculus with 20 samples.

Results

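The paraventricular thalamic nucleus (PVT), a midline nucleus of the thalamus, was compared with the posterior insular cortex (pIC) in control mice, gene by gene, to describe which transcription factors, receptors, channels, peptides, glial genes and genes of the ventricular lining set the 2 dissected regions apart. The members were chosen by label alone: 8 of the 20 libraries of the study, 4 from PVT and 4 from pIC, all from mice given vehicle. The other 12 libraries came from the same 2 regions of mice given a single intraperitoneal dose of 200 mg/kg streptozotocin (STZ), a toxin of pancreatic beta cells that is used to model diabetes and its painful neuropathy, and they served here only as a second look at the regional difference. All tissue was taken in week 7, as punches microdissected from fresh brain, and sequenced as stranded poly(A) libraries on an Illumina NovaSeq X Plus. The labels give no strain, sex or age, and do not say whether a library pools animals or whether a PVT and a pIC library of the same number came from 1 mouse, so p-values measure the spread between these libraries, which may in part be technical.

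The thalamus passes sensory and arousal signals to the cortex, and its projection neurons release glutamate that they load with the vesicular transporter encoded by Slc17a6, under a regulatory programme that includes Tcf7l2 and Gbx2. The PVT lies below the roof of the third ventricle, beside the habenula and above the hypothalamus, receives dense peptide-containing input and is known for roles in arousal, stress, feeding and pain. The insular cortex is a layered telencephalic area in which sensations of the body, pain and taste are represented, and its excitatory neurons use Slc17a7 and depend on regulators such as Tbr1 and Cux2.

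Library totals were 17939029 to 24549473 counts in PVT and 21165737 to 23345690 in pIC, mitochondrial genes took 5.63% to 7.01% of counts, and 21934 to 24019 genes had at least 1 count per library. Levels are given below in CPM, counts scaled to a common library total by the trimmed mean of M-values (TMM). The first principal component, with 75.8% of the variance, placed the pIC libraries between -63.55 and -53.35 and PVT libraries 1 to 4 at 72.62, 36.5, 49.2 and 75.21. PVT libraries were therefore more spread than pIC libraries, and PVT library 2 lay nearest to the cortex. Pituitary transcripts were high in PVT library 4, as described below, and calls of single genes that ended without PVT libraries 2 and 4 are given beside the result.

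Of 57180 gene identifiers, 16614 passed a filter on low counts. By edgeR's quasi-likelihood test with Benjamini-Hochberg adjustment over all of them, which gives every adjusted p below, 4231 genes (25.5%) were higher in PVT and 3717 (22.4%) were lower at an adjusted p under 0.05. Differences are given as log2 of PVT over pIC, and their median over all tested genes was 0.02. The median called difference was 0.77 among the higher genes and -0.51 among the lower ones, so the larger changes lay on the thalamic side. A difference of at least 2-fold, tested as such, was called for 781 genes (4.70%) on the PVT side and for 92 (0.554%) on the pIC side. The smaller count rested on single libraries: it was 305 without PVT library 2, 57 without PVT library 1, 61 without pIC library 1, 54 without pIC library 4 and 236 without PVT libraries 2 and 4. All 4 PVT libraries lay above all 4 pIC libraries for 3971 genes (23.9%), and all 4 lay below for 3568 (21.5%). In a bulk library, fewer cells of a type and less RNA per cell cannot be told apart, and this holds for every difference below.

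The order of the PVT libraries was not even. Among the 781 genes at least 2-fold higher, PVT library 2 was the lowest PVT library for 436 and PVT library 3 for 250, while library 1 was the highest for 393 and library 4 for 287. Among the 92 genes at least 2-fold lower, library 2 was the highest PVT library for 72. The same contrast in STZ mice, fitted on those 12 libraries alone, called 4280 genes higher (26.0% of 16489 tested) and 3809 lower (23.1%). Of the 4096 higher genes that were also tested there, 3461 were called in the same direction and 0 in the opposite one, and for the lower genes these counts were 3129 of 3696 and 0. A test of whether the regional difference itself differed between STZ and control mice called 0 of 17427 genes by edgeR. The lowest adjusted p was 0.0679, for Rarres2. An unadjusted p under 0.05 was found for 701 genes, fewer than chance alone gives at that threshold. No other tool was run on that interaction.

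The smallest p-values on the PVT side belonged to Kcne2, a potassium channel subunit found in choroid plexus, with a log2 difference of 8.53 (SE 0.26, adjusted p = 4.1e-08), to Prkcd, to the cilia gene Drc7 (5.67), to Zic1, to Rarres2, which encodes chemerin (3.22), and to Rdh5, a retinol dehydrogenase (3.58). On the pIC side they belonged to Cux2, to Chrdl1, an antagonist of bone morphogenetic proteins made by cortical astrocytes (-1.94, SE 0.15, adjusted p = 4.6e-06), to Il34, a ligand of the microglial receptor Csf1r (-1.14), to the adhesion receptor Adgrl2 (-1.05), to Gprin1 (-0.87) and to the cadherin Cdh22 (-1.01). The largest differences were unequal in the 2 directions. Ttr, the transthyretin of choroid plexus, reached 8.97, and Calcr, the calcitonin receptor, had 3.83 to 16.6 CPM in PVT and 1 count in all of pIC, a ratio of 870.2 (95% counting interval 156 to 34408). Lhx5 and Gnrh1 had no count in pIC and were at least 108-fold and at least 75.2-fold higher in PVT, against a floor of 3 counts over the pIC group. The largest differences on the pIC side were those of Cdsn (-3.43), Tcap (-3.10), Cd6 (-2.95) and Lipg (-2.75). Differences of 3 or more were called for 388 genes in favour of PVT, and differences of -3 or less for 13 genes.

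Thalamic genes separated the regions in every PVT library, but by unequal amounts. Of 18 listed genes of thalamic excitatory neurons, all tested, 12 were higher in PVT and 0 lower, with a median of 1.89. At least 2-fold higher were 6 of them. Without PVT libraries 2 and 4 the count was 16. These libraries had the lowest sums of this same list in PVT, so that rise is no independent check. In STZ mice the count was also 16. Prkcd (ENSMUSG00000021948), a protein kinase C isoform enriched in thalamic relay cells, had 77.6, 61.5, 89.8 and 74.9 CPM in PVT libraries 1 to 4 and 6.13, 6.81, 7.34 and 6.24 CPM in pIC libraries 1 to 4, a log2 difference of 3.52 (SE 0.12, adjusted p = 7.5e-08). Zic1 (ENSMUSG00000032368), a zinc finger factor of midline and medial thalamus, had 246, 160.3, 201 and 223 CPM against 9.58, 9.35, 12.3 and 10.3 CPM (4.32, SE 0.15, adjusted p = 9.7e-08). Both genes were lowest in PVT library 2, and even there lay far above the highest pIC library.

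Tcf7l2 (ENSMUSG00000024985), the WNT effector that maintains thalamic identity, had 70.4, 10.2, 65.6 and 21.6 CPM in PVT and 4.09, 4.31, 3.22 and 3.35 CPM in pIC (3.48, SE 0.69, adjusted p = 0.0059). Slc17a6 (ENSMUSG00000030500) had 158, 41.5, 150.5 and 57.7 CPM against 16.5, 21.1, 27.1 and 18.2 CPM (2.30, SE 0.49, adjusted p = 0.008). Gbx2, a homeobox factor of developing and adult midline thalamus, had 13.6, 0.840, 11.3 and 4.09 CPM against 0, 0.0490, 0.149 and 0.0466 CPM (6.83, adjusted p = 0.0032). All 3 were high in PVT libraries 1 and 3 and low in libraries 2 and 4, and the groups did not overlap. Shox2 (31.3, 2.52, 29.1 and 4.91 CPM in PVT, 0 to 0.0908 CPM in pIC) and Lhx9 (16.7, 2.80, 14.95 and 4.69 CPM in PVT, 0 to 0.326 CPM in pIC), homeobox genes named after their values were seen, had the same order of libraries. Ntng1, which encodes netrin-G1 on thalamocortical axons, was higher (1.44), as were Cbln1 (2.15), Zic4 (3.63), Patj (2.34), Amotl1 (1.64), Plekhg1 (1.45) and Synpo2 (2.13). The call of Ntng1 was lost without pIC library 1 (1.38) or 4 (1.43). Lef1 differed by 0.53 without reaching the threshold (adjusted p = 0.053), and was called without PVT library 2 (0.62) or 4 (0.64). Rora differed by -0.38 (adjusted p = 0.21), and was called without PVT library 3 (-0.58).

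Genes listed for midline nuclei and the PVT were mostly higher in PVT, but Drd2, a marker of the PVT itself, was not called. Of 14 listed genes, 13 were tested, 10 were higher in PVT and 1, Col12a1, was lower (-0.94). The higher genes include Gal, which hypothalamic neurons also make, and the part of hypothalamic tissue in this count was not tested. Calb2 (ENSMUSG00000003657), which encodes the calcium buffer calretinin, had 251, 81.3, 225 and 161 CPM in PVT against 10.2, 10.8, 10.6 and 11.1 CPM in pIC (4.07, SE 0.36, adjusted p = 1.2e-04). Drd2, the D2 dopamine receptor used to mark posterior PVT neurons, had 24.0, 45.2, 13.1 and 53.0 CPM against 6.81, 14.4, 41.9 and 13.8 CPM, and the groups overlapped (0.82, adjusted p = 0.35). Hcrtr2, the orexin receptor type 2, was higher by 0.80 (adjusted p = 0.014), Mc3r by 4.85, Npffr1 by 3.52 and the opioid receptor genes Oprm1 and Oprk1 by 1.30 and 0.67. The opioid receptor calls depended on single libraries: Oprm1 was not called without pIC library 1, 2 or 4 or PVT library 1 or 3 (1.00 to 1.33), nor Oprk1 without any of these or PVT library 4 (0.48 to 0.71), nor without both PVT libraries 2 and 4 (0.69), nor in STZ mice (0.44). Oprm1 lay at only 0.560 to 1.14 CPM in PVT and 0.0979 to 0.595 CPM in pIC, and both opioid receptor genes overlapped between the regions. Neither of them was called with all 20 libraries in the fit or with the replicate number as a block. Oprm1 was also not called by DESeq2. Hcrtr1 had a difference of 0.48 (adjusted p = 0.097).

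Cortical excitatory genes were lower in PVT, and again unevenly. Of 15 listed genes, 0 were higher and 11 lower, with a median of -1.46, and 14 had all PVT libraries below all pIC libraries; the count of lower genes was 8 to 14 when 1 library was left out, 15 without PVT libraries 2 and 4, and 11 in STZ mice. Cux2 (ENSMUSG00000042589), a factor of upper-layer neurons, had 29.3, 30.0, 31.5 and 24.5 CPM in PVT against 81.3, 82.3, 75.8 and 77.8 CPM in pIC (-1.46, SE 0.08, adjusted p = 8.1e-07). Slc17a7 (ENSMUSG00000070570), the vesicular glutamate transporter of cortical neurons, had 191, 565, 521 and 56.7 CPM against 1617, 1645, 1407 and 1645 CPM (-2.24, SE 0.68, adjusted p = 0.031). Cux2 differed little among the PVT libraries, whereas Slc17a7 spanned 56.7 to 565 CPM and was not at 0 in any of them.

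Tbr1, a T-box factor of deep-layer neurons, had 22.7, 60.9, 54.3 and 14.6 CPM in PVT and 161, 158, 148 and 158 CPM in pIC (-2.04, adjusted p = 0.0085). Among PVT libraries it was high in 2 and 3 and low in 1 and 4, with no overlap between regions. The call of Slc17a7 was lost without pIC library 1, 2 or 4 or PVT library 1 (-2.23 to -2.06). Neurod6 differed by -1.46 without reaching the threshold (adjusted p = 0.076), but was called without PVT library 4 (-1.13). Emx1 (-2.13) and Mef2c (-1.96) were lower. Laminar lists gave mixed counts: 2 higher and 5 lower of 11 upper-layer genes (median -0.22), 2 and 3 of 13 deep-layer genes (median -0.14), and 3 and 3 of 10 genes of insula and claustrum (median -0.04, and 0.04 with upper-quartile scaling). In the last list Nnat (3.05) and Car12 (1.61) were higher and Nr4a2 (-1.44) and Synpr (-0.47) lower, while Lamp5 (-1.84) and Rasgrf2 (-0.90) of the upper and Cplx3 (-1.498) and Ccn2 (-1.19) of the deep layers were lower. Cplx3 was not called without any 1 of the pIC libraries or PVT library 1 (-1.56 to -1.39).

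**Figure D1:**
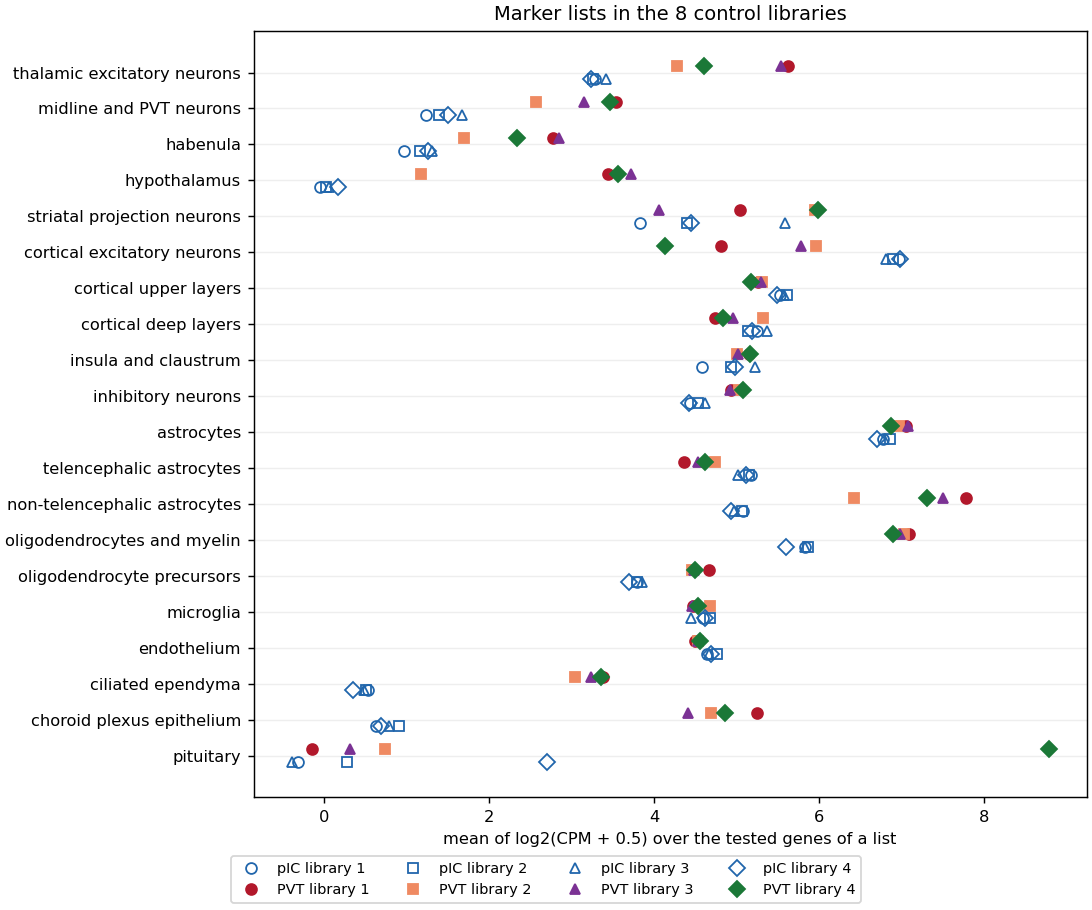
Mean of log2(CPM + 0.5) over the tested genes of 20 marker lists (horizontal axis) in each of the 8 control libraries; filled symbols are PVT libraries and open blue symbols pIC libraries, with 1 symbol shape per library number. Thalamic, ependymal and choroid plexus lists lie to the right in all 4 PVT libraries, cortical excitatory genes lie to the left, and the pituitary list stands far out in PVT library 4.

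**Figure D2:**
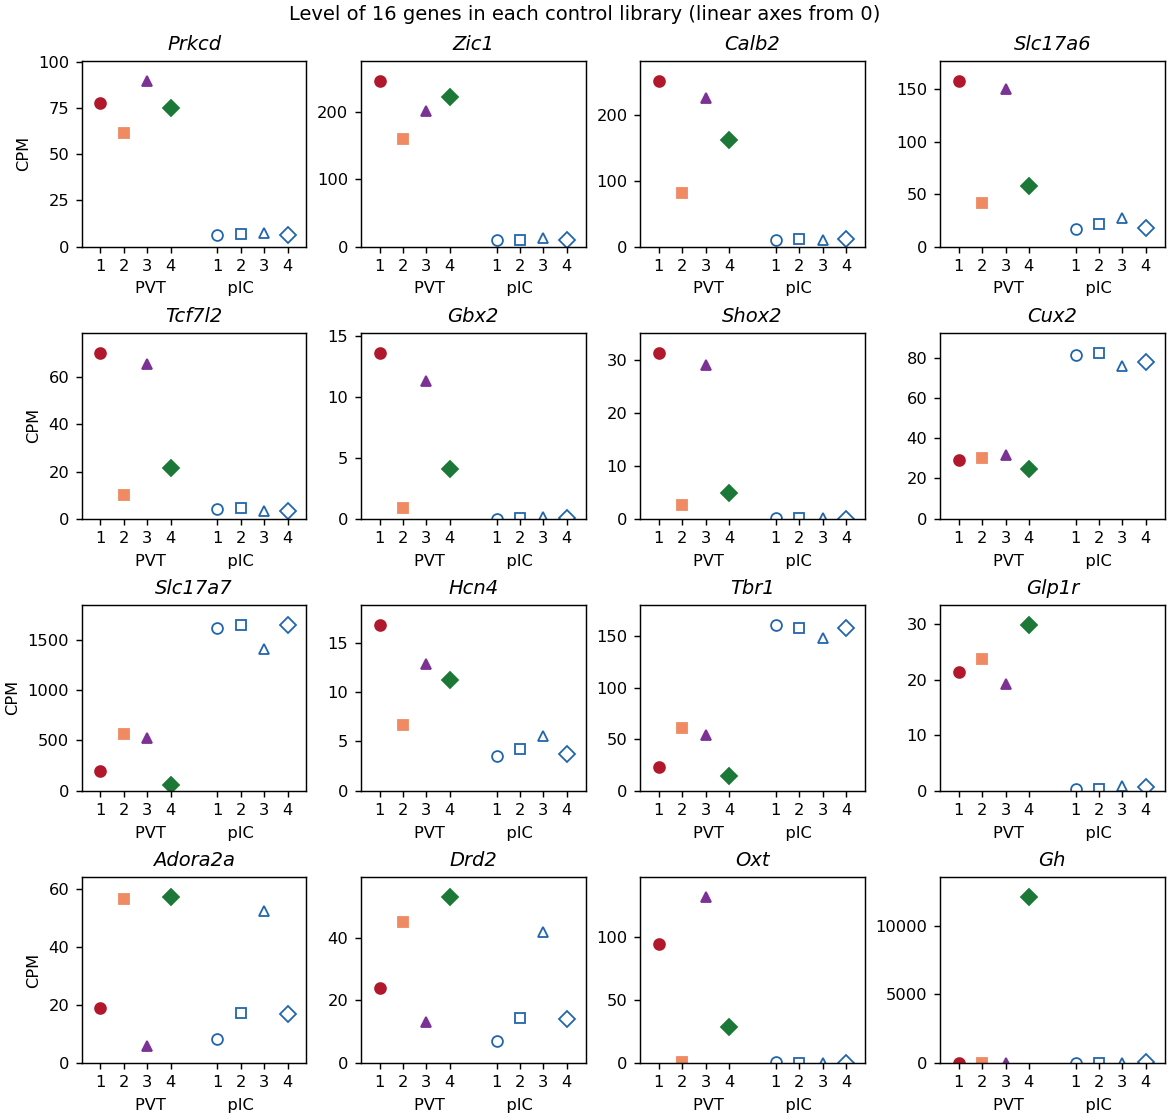
CPM of 16 genes (vertical axes, linear from 0) in PVT libraries 1 to 4 and pIC libraries 1 to 4, with 1 point per library. Prkcd and Cux2 are close to even among PVT libraries, Slc17a6, Tcf7l2, Gbx2 and Shox2 are high in PVT libraries 1 and 3, and Adora2a and Drd2 are high in PVT libraries 2 and 4 and in pIC library 3.

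Striatal, cortical and thalamic genes were summed by list in each library. The summed level of 14 striatal projection neuron genes was 799, 1725, 405 and 1689 CPM in PVT and 453, 652, 1513 and 675 CPM in pIC, so PVT libraries 2 and 4 and pIC library 3 were high and the regions overlapped; 2 of these genes were higher in PVT and 0 lower. Adora2a, the adenosine receptor of indirect-pathway neurons, had 19.0, 56.7, 5.82 and 57.3 CPM against 8.31, 17.3, 52.3 and 16.9 CPM (adjusted p = 0.62), and Drd1 was likewise not called (adjusted p = 0.48). Summed cortical excitatory genes were 882, 2187, 1694 and 799.5 CPM in PVT against 4571, 4403, 4224 and 4693 CPM in pIC. Summed thalamic genes were 1317, 698, 1256 and 786 CPM in PVT against 424, 399, 479 and 429 CPM in pIC. PVT library 2 thus held the least thalamic and the most striatal and cortical transcripts. The part of these sums in the differences of single genes was not tested.

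Hypothalamic genes were found on the PVT side. Of 16 listed genes, 9 were tested and 7 were higher, with 0 lower, and the summed level of the list was 202, 23.3, 268 and 931 CPM in PVT and 7.44 to 12.6 CPM in pIC; Pomc, also a pituitary gene, gave 849.5 CPM of the sum in PVT library 4. Oxt, the oxytocin precursor, had 93.9, 0.653, 131 and 28.5 CPM in PVT and 0 to 0.318 CPM in pIC (8.74, adjusted p = 0.011). Avp, the vasopressin precursor, had 21.4, 0.606, 43.9 and 2.10 CPM against 0 to 0.248 CPM (7.08, adjusted p = 0.021), and was not called without pIC library 1 (6.66) or 4 (6.67). Otp, a factor of neuroendocrine neurons, had 10.1, 0.513, 12.8 and 2.03 CPM, and Nkx2-1 (4.93), Trh (4.80) and the histidine decarboxylase gene Hdc (3.82) were also higher. By limma-voom 3 genes of the list were called and 4 calls ended, those of Oxt (adjusted p = 0.317), Avp (0.123), Otp (0.0665) and Trh (0.0521). Oxt, Avp and Otp were below 1 CPM in PVT library 2 and highest in libraries 1 and 3. Pituitary hormones stood out in 1 library of each region: Gh had 0.0516, 1.49, 0.364 and 12079 CPM in PVT and 0, 0.637, 0.0496 and 36.1 CPM in pIC, and Pomc had 1.19, 0.840, 1.82 and 849.5 CPM against 0.772, 1.22, 0.248 and 6.01 CPM. PVT library 4 was the high library and pIC library 4 the next highest for both, and neither gene was called (adjusted p = 0.16 and 0.1). Without PVT library 4 the difference was -3.83 for Gh and -0.70 for Pomc, also not called. Both genes were called with all 20 libraries in the fit. Gh was called with the replicate number as a block too, and Pomc in STZ mice. Of 12 pituitary genes, 10 did not pass the filter, among them Prl, with 2146 CPM in PVT library 4 and 2.33 CPM in pIC library 4.

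Habenular and cholinergic genes were higher in PVT. Of 12 listed habenula genes, 10 were tested, 8 were higher and 1 was lower, with a median of 2.37, and their summed level was 94.4, 56.5, 90.0 and 84.9 CPM in PVT against 46.1, 53.2, 70.3 and 59.2 CPM in pIC. Chat, the enzyme that makes acetylcholine, had 8.57, 9.42, 4.95 and 11.1 CPM against 0.772, 0.833, 2.98 and 0.932 CPM (2.64, adjusted p = 0.0015). Its partners Slc5a7, which takes up choline, and Slc18a3, which loads acetylcholine into vesicles, differed by 2.80 and 2.77. Tac2, the neurokinin B precursor of medial habenula, was higher by 1.71, the orphan receptor gene Gpr151 by 2.74, and Chrnb4 had 0.750 to 4.32 CPM in PVT against 3 counts in all of pIC, a ratio of 56.7 (95% counting interval 19.1 to 278). The call of Gpr151 was lost without any 1 of the pIC libraries or PVT library 1 or 3 (2.03 to 2.82). That of Tac2 was lost with the replicate number as a block (adjusted p = 0.0656 by edgeR). Nr4a2, also used as a habenula and claustrum gene, was lower (-1.44). The striatum also holds cholinergic neurons, and the part of habenular or striatal tissue in these differences was not tested.

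Homeobox factors, which pattern the regions of the developing brain, were more often higher than lower in PVT. Of 174 listed members 79 were tested, and 44 of these were higher in PVT (55.7%) and 17 lower (21.5%), with a median of 0.74. A factor silent in 1 region passes the filter only through the other, so this share is a description of the members that passed. On the PVT side were Otx2 (7.36; its antisense neighbour may share reads), which is expressed in choroid plexus, Zfhx3 (2.93), Nkx6-2 (1.68), a factor of oligodendrocytes, Nkx2-2 (1.34) and the LIM factors Isl1 (3.92) and Lhx8 (4.64). Lhx1 and Uncx had 1 count each in pIC and ratios of 166 (95% counting interval 29.5 to 6606) and 141 (95% counting interval 24.9 to 5604), and Onecut3 and Lmx1a had none and were at least 40.1-fold and at least 61.1-fold higher. The distal-less genes of forebrain GABA neurons, Dlx1 (1.49), Dlx2 (1.499), Dlx5 (1.32) and Dlx6 (1.45, next to an antisense gene), and Six3 (3.16) were higher as well; they are also expressed in striatum, whose summed genes varied as given above. On the pIC side were Cux2, Emx1, Pknox2 (-1.003), Pou6f1 (-0.95), Pou3f2 (-0.64), Lhx2 (-1.05), a selector of cortical identity, Tshz3 (-1.53) and Satb1 (-1.06).

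SOX factors gave 9 higher and 1 lower of 16 tested (19 listed). Sox10 (1.02), the oligodendrocyte regulator, Sox9 (0.83), the astrocyte regulator, Sox2 (0.95) and Sox1 (2.18) were higher, and Sox5 (-0.96), a factor of deep-layer projection neurons, was lower. Forkhead factors gave 7 higher (28.0%) and 5 lower (20.0%) of 25 tested (44 listed), near the shares of all tested genes, 25.5% and 22.4%. Family counts here and below are to be read beside these shares. Basic helix-loop-helix factors gave 13 higher (39.4%) and 8 lower (24.2%) of 33 (53 listed). Id4 (1.35) and the oligodendrocyte factors Olig1 (0.94) and Olig2 (0.88) were higher and Bhlhe40 (-1.53) lower. Of 49 tested ZIC, GLI and Kruppel-like zinc fingers (60 listed), 19 were higher and 13 lower. Zic2 was higher by 2.39 and Zic5 by 3.17, and Bcl11a (-0.85), Klf6 (-0.44) and Klf7 (-0.52) were lower. Nuclear receptors leaned to the cortex, with 7 higher and 17 lower of 36 tested (47 listed) and a median of -0.23. Rorb, a factor of cortical layer 4, was lower (-0.84), as were Pparg (-1.95) and Rara (-0.89), while Nr2f2 (1.77), Esr1 (2.13) and the mineralocorticoid receptor gene Nr3c2 (0.53) were higher, Esr1 not called without pIC library 1 (1.99). Eomes, a T-box factor, was higher in PVT (6.12) and Tbr1 lower, the only 2 of 7 tested T-box genes called. Among 52 tested genes of the WNT pathway, 21 were higher and 12 lower (median 0.21): the ligands Wnt3 (2.12) and Wnt8b (2.38), the receptor Fzd7 (1.60), the secreted antagonist Sfrp5 (3.52) and Tcf7l2 lay on the PVT side, and Wnt9a (-1.64), Wnt7b (-0.85), Wnt4 (-0.98) and Frzb (-1.93) on the pIC side. Of 15 tested genes of retinoic acid metabolism and signalling (17 listed), 5 were higher and 4 lower: the retinol dehydrogenase genes Rdh5 and Rdh10 (0.78) and the binding protein gene Crabp1 (2.72) were higher, and Aldh1a3 (-1.31), which makes retinoic acid, was lower.

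**Figure D3:**
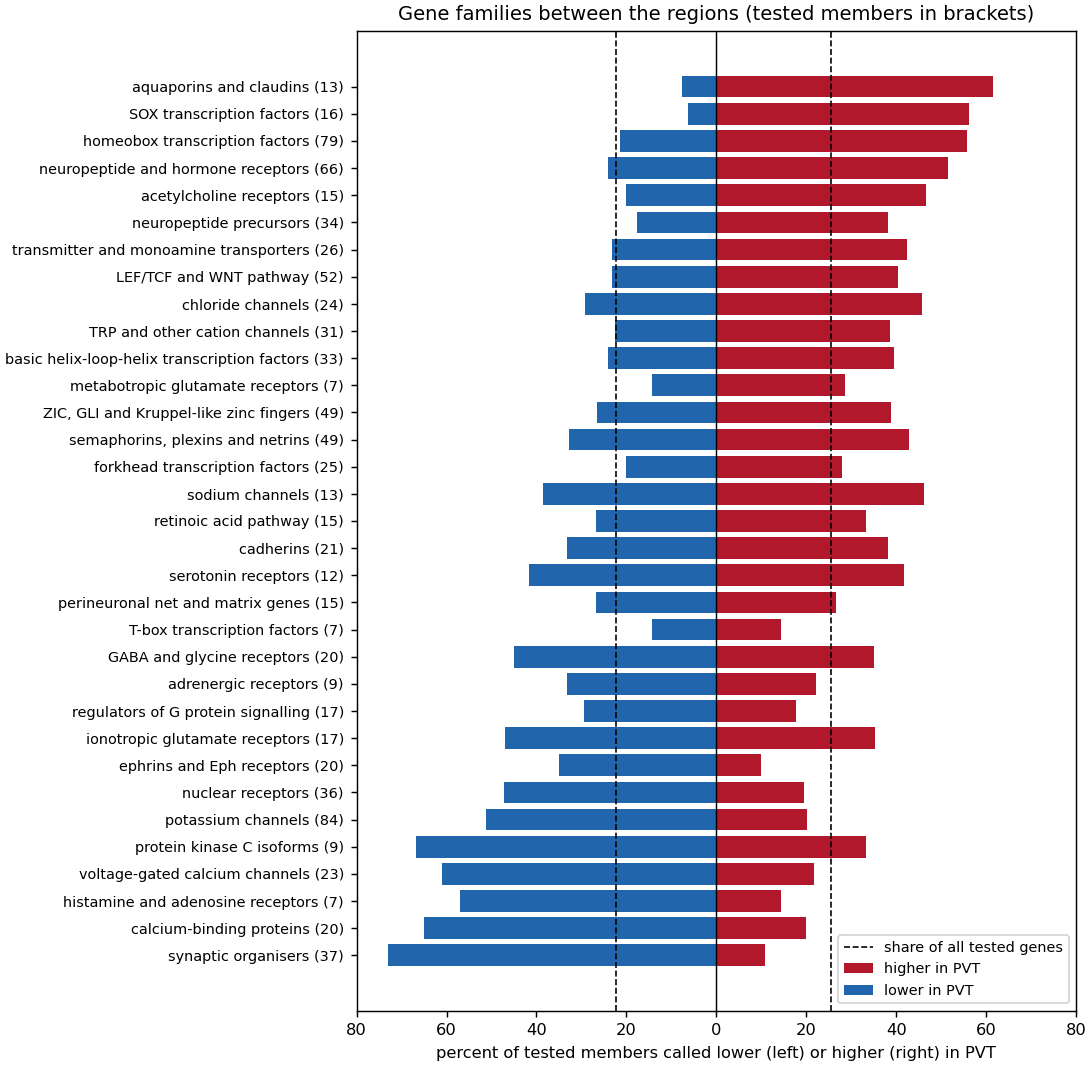
Percent of tested members called lower (left, blue) or higher (right, red) in PVT, for 33 gene families of at least 7 tested members (number in brackets). Dashed lines mark the shares among all 16614 tested genes, 22.4% lower and 25.5% higher; homeobox factors and peptide receptors extend beyond the right line, synaptic organisers, calcium-binding proteins and potassium channels beyond the left line.

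Fast glutamate and GABA receptor subunits differed in both directions, while the summed level of each family was lower in PVT. Summed ionotropic glutamate receptor genes were 1761 to 2210 CPM in PVT and 2505 to 2760 CPM in pIC. For GABA and glycine receptor genes the sums were 2177 to 2736 CPM against 3107 to 3394 CPM. Of 17 tested ionotropic glutamate receptor genes (18 listed), 6 were higher and 8 lower. The NMDA receptor subunits Grin2a (54.4, 98.0, 91.6 and 38.0 CPM in PVT, 199.9, 209, 181 and 189.8 CPM in pIC, -1.47, adjusted p = 0.0042), Grin2b (-1.005) and the obligatory Grin1 (-0.71) were lower, while Grin2d (1.14) and Grin3a (0.73) were higher. Among AMPA and kainate subunits, Gria3 was lower (-1.23) and Gria1 (0.49) and Grik1 (1.05) higher. PVT library 2 had the highest Grin2a of its region, and the regions did not overlap.

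Of 20 tested GABA and glycine receptor genes (26 listed), 7 were higher and 9 lower. Gabre, the epsilon subunit, had 16.3, 4.95, 11.7 and 11.4 CPM in PVT and 0.227, 0, 0.0496 and 0.233 CPM in pIC (6.34, SE 0.59, adjusted p = 5.8e-05), and Gabrq, the theta subunit, had 46.8, 8.77, 29.7 and 27.5 CPM against 0.726, 0.637, 0.347 and 0.839 CPM (5.44, SE 0.63, adjusted p = 4.2e-04). Both were lowest in PVT library 2 among PVT libraries and below 1 CPM in every pIC library. Gabrg1 (1.62), Gabrr2 (1.88), Glra2 (1.54) and Glra3 (1.11) were higher too, Glra3 not without pIC library 1 (1.03) or 2 (0.98). The extrasynaptic delta subunit gene Gabrd (-1.19), Gabra3 (-0.77) and the metabotropic GABA receptor gene Gabbr2 (-1.03) were lower.

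Receptors for monoamines and acetylcholine split by subtype. Of 12 tested serotonin receptors (14 listed), 5 were higher and 5 lower. Htr2c, a Gq-coupled receptor that is also abundant in choroid plexus, had 134.04, 97.7, 84.0 and 115 CPM in PVT and 14.5, 17.3, 29.8 and 25.0 CPM in pIC (2.32, adjusted p = 2.0e-04), and Htr4 (2.11), Htr5b (1.55), Htr7 (1.37) and Htr1a (0.79) were higher. Htr2a, the Gq-coupled receptor of cortical pyramidal cells, had 13.9, 24.4, 15.5 and 13.6 CPM against 50.2, 55.5, 54.1 and 65.5 CPM (-1.74, adjusted p = 1.0e-04), and Htr5a (-0.96), Htr1f (-0.86), Htr6 (-0.86) and the channel Htr3a (-0.79) were lower. The type 2A and 2C genes therefore lay on opposite sides, each without overlap between the regions.

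Of 9 adrenergic receptors, Adra2b (3.47) and Adra2a (0.93), both coupled to Gi, were higher, and Adra1d (-1.78), Adrb1 (-1.40) and Adra1b (-1.32) were lower. Of 15 tested acetylcholine receptor genes (21 listed), 7 were higher and 3 lower. Chrm5 (3.28), Chrna3 (2.10), Chrna2 (1.37) and Chrm2 (0.44) lay with Chrnb4 on the PVT side, and Chrna5 (-1.54), Chrm1 (-1.41) and Chrm3 (-0.99) on the pIC side. The call of Adra1d was lost without any 1 of the pIC libraries or PVT library 1 (-1.82 to -1.60), that of Chrna3 without pIC library 1, 2 or 3 or PVT library 1 or 3 (1.74 to 2.14), and that of Chrna5 without pIC library 1 (-1.43). Of 7 tested histamine and adenosine receptors (8 listed), Adora2b was higher (0.54) and Adora1 (-0.79), Hrh1 (-0.55), Hrh2 (-1.06) and Hrh3 (-0.57) were lower, and of 3 tested dopamine receptors (5 listed) Drd5 was higher (0.70). Among 7 tested metabotropic glutamate receptors (8 listed), Grm4 (0.35) was among those higher and Grm8 (-0.34) lower. Adora2b was not called without any 1 of the pIC libraries or PVT library 1 or 3 (0.41 to 0.62), nor Drd5 without PVT library 3 (0.60), nor Grm8 without pIC library 1 or 4 or PVT library 1 or 4 (-0.33 to -0.29).

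Peptide and hormone receptors were more often higher than lower in PVT. Of 77 listed members 66 were tested, and 34 of these were higher (51.5%) and 16 lower (24.2%), with a median of 0.67. A receptor gene silent in 1 region passes the filter only through the other, so this share describes the members that passed. The part of hypothalamic tissue in these differences was not tested. Glp1r, the receptor of glucagon-like peptide 1, had 21.4, 23.8, 19.3 and 29.9 CPM in PVT and 0.363, 0.245, 0.794 and 0.652 CPM in pIC (5.51, SE 0.26, adjusted p = 5.3e-07). Its level was even among PVT libraries, PVT library 2 included. Receptors of feeding and energy signals on the PVT side included Mc3r, Mc4r (0.84), Lepr (1.16), Galr1 (4.83), Npy2r (3.17), Trhr (2.59) and Cckar, with a ratio of 218 (95% counting interval 59.9 to 1802). Receptors of stress, vasopressin and tachykinin signals were Crhr2 (3.85), Avpr1a (4.29) and Tacr3 (3.06), and Brs3, the bombesin receptor 3, had 1 count in pIC and a ratio of 204 (95% counting interval 36.2 to 8091). Prlr, the prolactin receptor (6.08), is also in the choroid plexus list. Lower in PVT were the somatostatin receptors Sstr2 (-1.22) and Sstr3 (-1.33), whereas Sstr5 was higher (4.51, at 1.87 to 4.46 against 0.0466 to 0.298 CPM). Also lower were Crhr1 (-1.17), Npy1r (-0.72), Oprd1 (-1.53), Vipr1 (-2.13), Cckbr (-1.92) and the cannabinoid receptor gene Cnr1 (-0.57). Subtypes of other receptors were split between the regions as well: Crhr2 and Crhr1, Npy2r and Npy1r, Cckar and Cckbr, and Oprm1 and Oprd1, with the first of each higher in PVT and the second lower. The call of Mc4r was lost without pIC library 2 or 3 or PVT library 4 (0.56 to 0.79), and in STZ mice the difference was 0.00 (adjusted p = 0.996). The call of Oprm1, whose low levels overlapped between the regions, was lost as given above.

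Peptide precursors were found on both sides. Of 34 tested (52 listed), 13 were higher and 6 lower. Gal, the galanin precursor, had 20.1, 1.96, 15.1 and 16.2 CPM in PVT and 0.0454 to 0.0932 CPM in pIC (7.68, adjusted p = 8.7e-04), high in libraries 1, 3 and 4 and low in library 2. Nts, the neurotensin precursor, had 40.3, 29.8, 25.4 and 54.2 CPM against 0.545, 0.931, 9.23 and 1.07 CPM (3.69, adjusted p = 0.0095), with pIC library 3 above the other pIC libraries; the call was lost without PVT libraries 2 and 4 (3.48, adjusted p = 0.0635). Pnoc (1.75), the precursor of nociceptin, Cartpt (1.45) and Gnrh1, at 3.05, 2.71, 1.77 and 3.15 CPM in PVT, were higher as well. Cck had 65.7, 146, 164 and 23.1 CPM against 386, 460.3, 322 and 397 CPM (-1.97, adjusted p = 0.028), and Vip (-2.19), Npy (-1.64), Cort (-1.82) and Sst (-0.54), peptides of cortical interneurons, were lower. Cck was not called without pIC library 1, 2 or 4 or PVT library 1 (-1.98 to -1.83), nor Vip without pIC library 1, 2 or 4 (-2.23 to -2.12) or without both PVT libraries 2 and 4 (-2.13). Penk, the enkephalin precursor, differed by 1.09 (adjusted p = 0.21). Galanin, oxytocin, vasopressin and thyrotropin-releasing hormone are made by hypothalamic neurons. The summed hypothalamic genes were at 23.3 CPM in PVT library 2 and at 202 to 931 CPM in the other PVT libraries. Of the 931 CPM in PVT library 4, Pomc, also a pituitary gene, gave 849.5 CPM. The part of hypothalamic neurons in the peptide differences was not tested.

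Markers of inhibitory neurons were mostly higher in PVT, 13 of 22 tested genes (59.1%, against 25.5% of all tested genes). Another 5 were lower (22.7%, against 22.4% of all tested genes), or 3 without pIC library 1, 2 or 4. Gad2 (1.55, adjusted p = 4.7e-05), which makes GABA, and Slc32a1 (1.16), which loads it into vesicles, were among the higher genes, and Vip, Npy and Sst among the lower ones. Gad1, the other enzyme that makes GABA, differed by 0.45 (adjusted p = 0.0033). The summed striatal and hypothalamic genes given above varied among PVT libraries, and the part of striatal and hypothalamic tissue in these differences was not tested. Pvalb, the marker of fast-spiking interneurons, had 37.7, 49.96, 59.4 and 20.4 CPM in PVT and 74.4, 90.7, 73.6 and 66.2 CPM in pIC (-0.87, adjusted p = 0.048). Its lowest value was in PVT library 4 and the regions did not overlap, but the call was lost without any 1 of the pIC libraries or PVT library 1 or 2 (-0.98 to -0.78).

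Potassium channels were more often lower than higher in PVT. Of 84 tested genes (98 listed), 43 were lower (51.2%) and 17 higher (20.2%), with a median of -0.48. Voltage-gated genes on the pIC side included Kcnh1 (-1.09), Kcnf1 (-1.29), Kcnq3 (-1.02), Kcnh7 (-2.01) and Kcnv1 (-2.09), with the sodium-activated Kcnt1 (-0.67) and the inward rectifier Kcnj11 (-0.82). On the PVT side, Kcne2 and Kcnj13 (4.79) are genes of choroid plexus, while Kcnj5 (3.73), a G protein-gated channel gene, and the calcium-activated Kcnn3 (1.14) are expressed in neurons. The pacemaker channel gene Hcn4 had 16.8, 6.62, 12.9 and 11.3 CPM in PVT and 3.54, 4.21, 5.61 and 3.73 CPM in pIC (1.48, adjusted p = 0.0017). Hcn4 was highest in PVT libraries 1 and 3.

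Voltage-gated calcium channels and their accessory subunits gave 5 higher and 14 lower of 23 tested (26 listed), with a median of -0.43. Cacng5 (2.56) and Cacna2d2 (1.88) were higher, and Cacnb3 (-1.45), Cacng3 (-1.44), Cacna2d1 (-1.20) and Cacna1i (-0.99) were lower. Of the low-threshold channels that drive thalamic bursting, Cacna1g had 67.0, 41.3, 56.9 and 35.04 CPM in PVT and 64.6, 63.5, 61.5 and 62.9 CPM in pIC (-0.34, adjusted p = 0.15), so it was not called, except without PVT library 1 (-0.52). Of 13 tested sodium channel genes (18 listed), 6 were higher and 5 lower, with Scn9a (5.17) on the PVT side at 4.48 to 15.4 CPM. Scn8a (-1.18), Scn1a (-0.65) and Scn2a (-0.62), the main sodium channels of central neurons, were lower. TRP and other cation channels gave 12 higher and 7 lower of 31 tested (41 listed), 4 lower without pIC library 1 and 4 lower without PVT libraries 2 and 4. Trpv4 (3.10) and Trpm3 (1.85), both expressed in choroid plexus, and the neuronal Trpc4 (1.11) were higher, and Trpc6 (-1.07) was lower. Chloride channels gave 11 higher and 7 lower of 24 tested (32 listed), with the calcium-activated Ano1 (1.99) and Ano2 (3.91) on the PVT side.

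Calcium-binding proteins were more often lower, 13 of 20 tested (21 listed) against 4 higher, with a median of -0.57. The calmodulin genes Calm2 (-0.77) and Calm3 (-0.67) were lower together with Hpcal4 (-1.02) and Cabp1 (-2.06), and the higher genes were Calb2, Necab2 (1.72), Hpcal1 (1.42) and Cabp7 (1.72). All 9 protein kinase C genes were called: Prkcd, Prkcq (1.45) and Prkch (1.69) were higher, and 6 were lower, among them the calcium-dependent Prkcb (-1.15). Regulators of G protein signalling gave 3 higher (17.6%) and 5 lower (29.4%) of 17 tested (21 listed), not far from the 25.5% and 22.4% of all tested genes. Rgs4 (-1.60) and Rgs6 (-1.14) were lower and Rgs10 (0.91), Rgs3 (1.31) and Rgs22 (4.56) higher. Vesicular and plasma membrane transmitter transporters gave 11 higher and 6 lower of 26 tested (35 listed). The glycine transporter gene Slc6a9 (1.05), the GABA transporter gene Slc6a11 (1.59) and the vesicular monoamine transporter gene Slc18a2 (0.88) were higher, and Slc1a1 (-0.40) and the glial glutamate transporter gene Slc1a2 (-0.62) were lower.

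Glial genes differed by cell type. All 22 oligodendrocyte and myelin genes were higher in PVT, without overlap between the regions, with a median of 1.19, and 21 of them were called in STZ mice. Their summed level was 11650.2, 11692, 10787 and 9611 CPM in PVT and 4889, 5241, 4855 and 3858 CPM in pIC. Mbp, myelin basic protein, had 4400.0, 4279, 3969 and 3499 CPM against 1935, 2065, 1749 and 1439 CPM (1.17, SE 0.12, adjusted p = 3.6e-05). The 4 PVT libraries were close to each other, library 2 included. The myelin enzymes Aspa (1.18) and Ugt8a (1.18), the surface protein gene Mog (1.19) and the tight junction gene Cldn11 (1.26) had differences of like size. Genes of oligodendrocyte precursors were higher in 10 of 11 cases and lower in 0, with a median of 0.83, among them Enpp6 (1.13), Lhfpl3 (1.48) and C1ql1 (1.07).

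Of 16 astrocyte genes shared by all regions, 8 were higher and 2 lower, with a median of 0.26. Gfap, the filament protein of white matter and periventricular astrocytes, had 248, 198, 226 and 204 CPM in PVT against 81.3, 79.0, 79.1 and 74.4 CPM in pIC (1.48, SE 0.08, adjusted p = 8.1e-07). All 5 genes of non-telencephalic astrocytes were higher, with a median of 2.35, among them Sparc (2.35), Itih3 (2.51) and the transporters Slc6a9 and Slc6a11. Of 5 telencephalic ones, Dmrta2 was higher (1.10) and 3 were lower, among them Chrdl1 and Lhx2. Agt, the angiotensin precursor made by diencephalic astrocytes, had 114, 20.7, 92.6 and 69.0 CPM against 3.59, 3.23, 3.17 and 3.77 CPM (4.42, adjusted p = 7.5e-04), with its lowest PVT value in library 2. Microglial genes gave 1 higher and 1 lower of 18 (median -0.06, and 0.02 with upper-quartile scaling), border macrophages 0 and 0 of 8, endothelium 0 and 5 of 15, mural cells 0 and 1 of 11, meningeal fibroblasts 3 and 2 of 12, and red cell genes 0 and 0 of 5. The single microglial calls were Sall1 (0.51) and Tmem119 (-0.24), the mural one was Vtn (-0.25), and the endothelial ones included the junction gene Esam (-0.43) and Egfl7 (-0.46). Tmem119 was not called without pIC library 4 (-0.20), nor Vtn without pIC library 1, 2 or 3 or PVT library 1 or 2 (-0.25 to -0.17), without both PVT libraries 2 and 4 (-0.24) or in STZ mice (-0.16). Tek, an endothelial receptor gene, differed by -0.34 in control mice and by 0.16, not called, in STZ mice.

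Genes of motile cilia and of choroid plexus were higher in PVT throughout their lists. Choroid plexus epithelium makes cerebrospinal fluid in the ventricles, and ciliated ependyma lines them. All 26 ependymal genes were higher in PVT, 25 of them by at least 2-fold, with a median of 3.33, and all 26 choroid plexus genes were higher, 25 by at least 2-fold, with a median of 5.86 (5.80 with genes absent from pIC set to their bound). Summed ependymal genes were 313, 239.8, 277 and 311 CPM in PVT and 33.7, 34.0, 33.3 and 30.3 CPM in pIC. Summed choroid plexus genes were 8563, 5922, 4491 and 5979 CPM against 295, 291, 264 and 296 CPM. No library overlapped between the regions for either sum.

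The promoters of 3 of these ependymal genes are shown because they hold GTTGCCA, the 5′ part of the X-box motif to which RFX factors of ciliated cells bind; Hydin, Sntn and Tekt1 encode parts of motile cilia. The 250 bases before each gene's start are printed 5′ to 3′ on the gene's strand, from RefSeq on GRCm38.p6, with the motif in capitals in the direction in which it was found. They are Hydin at chr8:110266727-110266976 on the plus strand, with TGGCAAC starting 14 bases before the start, Sntn at chr14:13670626-13670875 on the plus strand, with GTTGCCA 66 bases before, and Tekt1 at chr11:72361883-72362132 on the minus strand, with GTTGCCA 15 bases before.
Hydin: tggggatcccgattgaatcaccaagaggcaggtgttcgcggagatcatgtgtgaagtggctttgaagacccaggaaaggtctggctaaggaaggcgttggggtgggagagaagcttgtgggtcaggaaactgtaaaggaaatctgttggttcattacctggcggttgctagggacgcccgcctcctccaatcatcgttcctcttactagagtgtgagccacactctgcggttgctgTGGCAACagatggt
Sntn: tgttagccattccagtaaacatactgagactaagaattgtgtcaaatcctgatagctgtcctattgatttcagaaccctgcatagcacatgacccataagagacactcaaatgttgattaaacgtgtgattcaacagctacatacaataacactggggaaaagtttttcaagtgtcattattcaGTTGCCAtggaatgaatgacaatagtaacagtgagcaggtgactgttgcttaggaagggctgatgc
Tekt1: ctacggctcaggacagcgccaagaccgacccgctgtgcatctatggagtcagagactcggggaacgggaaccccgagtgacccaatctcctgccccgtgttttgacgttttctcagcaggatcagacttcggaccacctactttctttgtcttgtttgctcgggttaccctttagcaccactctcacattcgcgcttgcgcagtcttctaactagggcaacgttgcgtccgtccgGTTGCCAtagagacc

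Windows of 250 bases before to 50 bases after the start were searched on both strands. GTTGCCA was in 3 of 24 windows (12.5%) of the 19 ependymal genes that matched the RefSeq table, in 1 of 29 (3.45%) of the 21 matched choroid plexus genes and in 1439 of 32851 windows (4.38%) of all genes. The full X-box, GTTNCC and GGNAAC with NN between them, was in 0 of the 24 and in 148 of all windows (0.451%). TAATCC, the core bound by OTX factors, was in 1 of 29 choroid plexus windows, 1 of 24 ependymal windows (4.17%) and 2320 of all (7.06%). CTTTGAT, the core bound by LEF and TCF factors, was in 0 of 25 windows of the 17 matched genes of the thalamic list. It was in 4 of 25 windows of the 11 matched cortical excitatory genes and in 1225 of all (3.73%). The 4 cortical windows belong to only 2 genes, Arpp21 and Sv2b. A match describes these letters in this window only.

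Hydin had 9.19, 5.09, 6.54 and 5.63 CPM in PVT and 0.726, 0.0979, 0.347 and 0.419 CPM in pIC (4.01, adjusted p = 2.2e-05), and its window overlaps an antisense exon. Sntn had 3.10, 2.52, 3.41 and 3.38 CPM against 0.0908, 0.0490, 0.0992 and 0 CPM (5.57, adjusted p = 2.7e-06), and Tekt1 had 9.55, 7.65, 9.13 and 9.57 CPM against 0.908, 0.882, 0.744 and 0.978 CPM (3.34, adjusted p = 3.5e-07). In all 3, each PVT library exceeded each pIC library. Foxj1, the master regulator of motile cilia, had 43.0, 30.6, 32.4 and 38.5 CPM against 3.27, 4.65, 4.41 and 2.47 CPM (3.29, SE 0.19, adjusted p = 2.0e-06), and Tmem212 (6.85) and Ccdc153 (6.66) showed the largest ependymal differences.

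Ttr had 5629, 3939.9, 2765 and 3986 CPM in PVT and 2.86, 18.9, 4.46 and 6.43 CPM in pIC (8.97, SE 0.77, adjusted p = 1.3e-04). Cldn2, a claudin of the leaky choroid epithelium, differed by 8.45, Folr1, its folate receptor, by 7.33, and Otx2 had 30.0, 16.4, 14.9 and 21.1 CPM against 0.0454, 0.294, 0.0992 and 0.0466 CPM. PVT library 1 was the highest for Ttr and library 3 the lowest. The choroid plexus list also holds Kcne2, Kcnj13, Prlr and Lmx1a, named above among channels, receptors and factors, and the part of choroid plexus RNA in their differences was not tested. Aquaporins and claudins gave 8 higher and 1 lower of 13 tested (34 listed), with Aqp1 (6.67) and Cldn1 (3.71) of choroid plexus on the PVT side and Aqp11 (-0.76) on the other. Of 7 tested genes of tanycytes and the subcommissural organ (8 listed), Cd59a (1.58), Gpr50 (5.03) and Sspo (1.65), which encodes SCO-spondin, were higher, and Frzb and Dio2 (-1.59) lower. Of the 781 genes at least 2-fold higher in PVT, 25 were in the choroid plexus list and 25 in the ependymal list, and 89 were in any marker list.

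**Figure D4:**
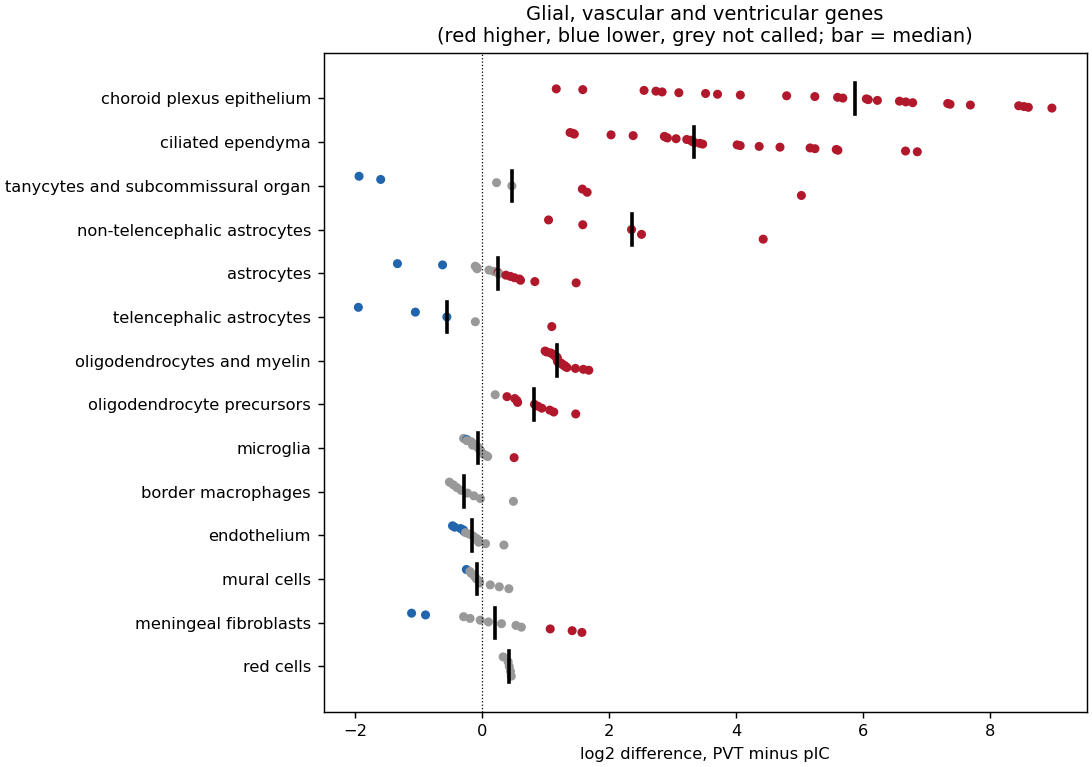
Log2 difference of PVT minus pIC (horizontal axis) for each tested gene of 14 glial, vascular and ventricular lists, with 1 point per gene (red higher, blue lower, grey not called) and a black bar at the median. All choroid plexus, ependymal and oligodendrocyte genes lie right of 0, and microglial, vascular and red cell genes lie near 0.

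Genes that organise synapses were more often lower than higher in PVT. Of 37 tested synaptic organisers (39 listed), 27 were lower (73.0%) and 4 higher, with a median of -0.44. Ntng2, the netrin-G of cortical neurons, was lower (-1.76), as were Lrfn2 (-0.82), Slitrk5 (-0.73), Slitrk1 (-0.61) and Nlgn2 (-0.44), the neuroligin of inhibitory synapses. The 4 higher genes were the secreted Cbln1, C1ql1 and C1ql2 (5.38) and the receptor gene Slitrk6 (4.38). Ephrins and Eph receptors gave 2 higher and 7 lower of 20 tested (22 listed), with Efnb3 (1.70) and Ephb3 (-1.56) on opposite sides. Semaphorins, plexins and netrins gave 21 higher and 16 lower of 49, with the ligands Sema3b (2.47) and Sema6a (1.06) higher and the receptors Plxnd1 (-1.73) and Unc5a (-0.92) lower. Cadherins gave 8 higher and 7 lower of 21 tested (23 listed), with Cdh8 (0.58) higher and Cdh22, Cdh6 (-0.75), Cdh9 (-0.84) and Cdh10 (-0.65) lower. Of 15 tested genes of perineuronal nets and matrix (16 listed), 26.7% were higher and 26.7% lower, near the 25.5% and 22.4% of all tested genes. Hapln2 (1.27), Adamts4 (1.28), Adamts5 (0.69) and Vcan (0.55) were higher and Ncan (-0.86), Tnr (-0.45), Hapln1 (-0.66) and Hapln4 (-0.82) lower. Without PVT libraries 2 and 4 Adamts5 was not called (0.42, adjusted p = 0.177). The summed cortical and myelin genes given above differed in the same libraries, and their part in these family counts was not tested.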

How the data were processed

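The authors deposited 1 table of raw read counts per gene for 57180 Ensembl identifiers in 20 libraries, whole numbers without normalization. Per the submitters' processing notes the genome was GRCm39 (mm39); the strand setting, like the aligner and counter, is not given in the sources used here, so reads of overlapping, antisense or near-identical genes may be shared. The annotation at hand is of another build, so no gene positions are given apart from RefSeq promoters on GRCm38.p6. Symbols from the RefSeq tables matched 51884 identifiers, and 27794 had no count in the 8 control libraries.

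The 4 PVT and 4 pIC control libraries were fitted alone with edgeR 4.0.16 in R 4.3.3: filterByExpr (minimum count 10, total 15), TMM scaling, a robust quasi-likelihood test and Benjamini-Hochberg adjustment, with a threshold of 0.05, and glmTreat for at least 2-fold. DESeq2 1.42.0 and limma-voom 3.58.1 were alternatives. The scripts were tested on simulated data. No 2 libraries of a region agreed within sampling noise (lowest chi-square per degree of freedom 4.01). Intervals and floors cover counting error only.

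The gene lists were 25 marker lists and 34 families, 1408 genes of which 1094 were tested. Lists, members and the groups compared were chosen with earlier results of these data known, so list counts are descriptions. Named genes were, among called genes of at least 1 CPM, the 6 of smallest p and the 4 of largest difference in each direction, up to 4 called members of each list in each direction by smallest p (or 2 of smallest p), and a fixed set of defining genes. Other genes were named after their values were seen, among them Shox2, Lhx9, Oxt, Avp, Pomc, Adora2a, Npy2r, Galr1, Oprm1, Cckbr, Hcn4, Agt, Hydin, Sntn and the activity-induced genes. Some genes are not reported here.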

Additional observations from a re-analysis of the deposited data

Results flagged for a closer look

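For the 49 genes and 8 marker lists whose values are printed per library, each group of 4 was examined for a library that lay apart from the other 3 by Dixon's 95% critical value. This held in 14 of 113 groups. Chance marks about 1 in 20 independent groups, but that rate is no fair comparison here. Some of these genes were named after their values were seen, and genes of 1 tissue vary together. PVT library 4 lay apart for the pituitary hormone genes Gh, with 12079 CPM, Prl, with 2146 CPM, and Pomc, with 849.5 CPM. pIC library 4 lay apart for the same 3 genes, with 36.1, 2.33 and 6.01 CPM. The summed hypothalamic genes of pIC library 4 were also apart, at 12.6 CPM, as was its Gal, at 0.0932 CPM, which is 2 counts. pIC library 3, high in striatal genes, lay apart for Nts (9.23 CPM) and Chat (2.98 CPM) on the high side, and for Slc17a7 (1407 CPM) and the summed choroid plexus genes (264 CPM) on the low side. pIC library 2 lay apart for Scn9a (0.686 CPM) and, through 1 count, for Calcr (0.049 CPM). Without PVT libraries 2 and 4, the 12 thalamic genes called higher became 16 and the 11 cortical excitatory genes called lower became 15. The libraries left out had the lowest summed thalamic genes in PVT, so the rise to 16 is no independent check. No reason for these values was tested.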

How the results depend on the processing

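The counts of 4231 higher and 3717 lower genes stayed within 1.5 times of their values with RLE or upper-quartile scaling, with no filter or a stricter one, with DESeq2, with limma-voom, with all 20 libraries in the fit, without any 1 library and in STZ mice. Leaving out 1 library gave 3650 to 4156 higher and 3121 to 3989 lower genes, 674 to 907 at least 2-fold higher and 54 to 305 at least 2-fold lower. The 781 genes at least 2-fold higher became 511 in the STZ libraries, and the 92 at least 2-fold lower became 236 without PVT libraries 2 and 4; the cause was not tested. Counts of 5 or more list genes that moved by over 1.5 times were those of habenula (8 to 5 under the stricter filter or the block), hypothalamus (7 to 3 under the stricter filter or limma-voom), inhibitory neurons (5 lower to 3 with no filter), endothelium (5 lower to 2 in STZ mice), nuclear receptors (17 lower to 11 in STZ mice), acetylcholine receptors (7 to 4 under the stricter filter), peptide precursors (6 lower to 3 with no filter), serotonin receptors (5 lower to 3 in STZ mice), retinoic acid genes (5 to 3 in STZ mice), TRP and other cation channels (7 lower to 4 without PVT libraries 2 and 4) and regulators of G protein signalling (5 lower to 3 with all 20 libraries). Upper-quartile scaling moved the median difference of all genes from 0.025 to 0.101 and the higher share of calls from 53.2% to 63.0%. Of 408 named genes that were called, 364 kept their call under every alternative on control libraries and 341 also in STZ mice. Over 7746 values of named genes, 209 lost and 39 gained a call, and 2 genes that were called changed sign, both in the STZ libraries: Tek, from -0.34 to 0.16, and Nr4a3, from -0.54 to 0.05. Genes that were not called could change sign too: without PVT libraries 2 and 4 the difference was -5.39 for Gh, -0.47 for Pomc, -0.96 for Adora2a and -0.53 for Drd1, none called. Beside the losses given with the results, the calls of Adora2b, Aldh1a3, Car12, Col12a1, Crabp1, Dlx6, Dmrta2, Hrh1 and Hrh3 were lost in the STZ libraries. So were those of Htr1a, Htr1f, Htr6, Pvalb, Rara, Rorb and Synpr. The calls of Cort and Satb1 were lost with no filter, and those of Chrna3, Gpr151 and Vtn by limma-voom. Grm4 was not called with all 20 libraries in the fit, nor Tmem119 with upper-quartile scaling. Further losses under these settings are not listed. With the replicate number as a block, the counts were 3835 higher, 3303 lower, 711 and 74. Deviations of same-numbered libraries correlated at 0.123, -0.107, -0.0764 and -0.0496. Differences in what each punch held also enter these values, so they cannot decide whether the numbers pair the libraries. With 4 libraries a region, small differences were not detectable, and genes under the filter were not tested. Regional differences cannot be told apart from differences in what tissue each punch held.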

Other observations

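Genes that neurons induce when active were more often lower than higher in PVT of control mice. This group, in which Fos, Arc and the Egr genes are the usual members, was put together after the values were seen. Of 17 such genes, 11 were lower and 0 higher in control mice, and 4 were lower and 0 higher in the STZ libraries. Of all tested genes, 22.4% were lower in control mice and 23.1% in STZ mice, so the 4 of 17 lie near the share of all genes there. Egr1, an early growth response factor, had 94.9, 369.9, 231 and 263 CPM in PVT and 762, 701, 651 and 630.3 CPM in pIC (-1.52, adjusted p = 0.011 by edgeR). Arc, which acts at synapses, had 63.3, 301, 183 and 100.05 CPM against 725, 623, 484 and 416 CPM (-1.80, adjusted p = 0.021). Neither gene overlapped between the regions, and PVT library 2 was the highest PVT library for both. Fos had 27.0, 37.3, 40.7 and 93.7 CPM against 68.6, 61.8, 59.7 and 53.4 CPM (-0.29, adjusted p = 0.56), with PVT library 4 above every pIC library, and was called without it (-0.81). Arc was not called without pIC library 1 (-1.65) or PVT library 4 (-1.63), nor in STZ mice (-1.12, adjusted p = 0.0538). Nr4a3, lower in control mice (-0.54), differed by 0.05 in STZ mice. The summed cortical excitatory genes were also lower in PVT and highest there in library 2, and their part was not tested.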
